A study of Mus musculus with 16 samples.

Results

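The 38 autophagy and lysosome genes described here were chosen by symbol: 7 act in the initiation of autophagy, 8 in the growth of the autophagic membrane and the conjugation of ATG8 proteins, 5 encode ATG8 proteins, 2 encode cargo receptors, 2 encode transcription factors, 4 encode lysosomal membrane proteins and 10 encode proteins of the lysosomal lumen. They are 38 of the 53779 genes in the table. Their mRNA was read in primary neuronal cultures (PNCs) from the cortex of wild type mice at embryonic day 15. Of 16 cultures, 4 received vehicle and sham treatment (CONTROL-VEH, cultures 1 to 4), 4 received 10 μM tianeptine (TIA), an atypical antidepressant, and sham treatment (CONTROL-TIA, 5 to 8), 4 received vehicle and 3-h oxygen-glucose deprivation (OGD-VEH, 9 to 12) and 4 received both TIA and OGD (OGD-TIA, 13 to 16). OGD takes away oxygen and glucose for a limited time and is used as a culture model of ischemia. Vehicle or TIA was given at DIV 8 (days in vitro), 24 h before OGD or sham at DIV 9, and RNA was taken at 6-h reoxygenation. The sample labels call the vehicle cultures untreated.

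Autophagy encloses cytoplasm, protein aggregates and organelles in a double membrane that fuses with lysosomes, where acid hydrolases break the contents down. The ULK kinases and the BECN1-PIK3C3 lipid kinase start the process, a conjugation system couples ATG8 proteins (the LC3 and GABARAP families) to the membrane, cargo receptors bind both ATG8 and cargo, and the factors TFEB and TFE3 activate many genes of the pathway. Neurons depend on it because they do not divide, and glial cells also express these genes, several of the lysosomal ones at high levels.

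Values are FPKM (fragments per kilobase of transcript, scaled to the sequencing depth), deposited per isoform and summed here over the isoforms of each gene. Levels of different genes can be compared only with care, since short isoforms made up much of many sums. Of the 38 genes, 37 had a mean of at least 0.5 FPKM and were tested. The exception was *Ctss* (cathepsin S, a protease typical of microglia and macrophages), which lay between 0 and 0.142 FPKM in all 16 cultures. The other 37 spanned mean levels from 1.37 FPKM for *Tfeb* to 305 FPKM for *Gabarap*, and *Ulk1*, *Becn1*, *Gabarapl1* and *Map1lc3a* followed at 299, 289, 286 and 272 FPKM. Isoforms under 1000 bases held 95.4%, 90.3%, 88.2%, 56.6% and 87.8% of the sums of *Gabarap*, *Ulk1*, *Becn1*, *Gabarapl1* and *Map1lc3a*.

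Markers of cell types varied between the cultures and are given here to be read beside the results below. Their part in those results was not tested. Neuron markers were abundant in all cultures. The sum of 7 neuron markers was 1964 to 2644 FPKM in CONTROL-VEH, 2034 to 2222 FPKM in CONTROL-TIA, 1017 to 1831 FPKM in OGD-VEH and 1287 to 2070 FPKM in OGD-TIA. The sum of 6 astrocyte markers was 723 to 1543 FPKM, 616 to 789.8 FPKM, 982 to 2467 FPKM and 728 to 1881 FPKM in the same order, and cultures 4, 12 and 16 stood above the others of their groups with 1543, 2467 and 1881 FPKM. The sum of 8 oligodendrocyte lineage markers was 159 to 213 FPKM in all CONTROL cultures, 244 to 676 FPKM in OGD-VEH and 225 to 438 FPKM in OGD-TIA. The 10 microglia markers summed to at most 3.13 FPKM in any culture, with 0 to 7 of them at 0, and the 7 fibroblast or vascular markers to 3.25 to 17.2 FPKM. In these cultures, fewer cells of a type and less RNA per cell cannot be told apart.

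OGD was first compared with CONTROL within each arm, 4 cultures against 4, with limma on log2(FPKM + 0.1) and padj (Benjamini-Hochberg over all genes tested) of at most 0.05. Without TIA, 0 of the 37 genes passed, where 5% of 16376 genes were called up and 3.44% were called down. The smallest padj were those of *Ulk2* (0.0528), *Tfeb* (0.0628) and *Gabarap* (0.0644). At an unadjusted p under 0.05, 10 of the 37 genes were higher and 2 were lower in OGD-VEH, against 20.2% and 14.8% of all genes. The median log2 fold change of the 37 genes was 0.10, as was the median of all genes tested. This count depended on the setting, as did that of all genes. Array quality weights gave 14 members up and 3 down of 37, where 23.1% and 15.7% of all genes were called, and leaving out culture 9 gave 9 up and 1 down, where 17.9% and 12.6% of all genes were called.

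With TIA, 0 of the 37 genes passed between OGD-TIA and CONTROL-TIA, as did 0 of 16273 genes (0% in either direction). The study, with its own test on counts, reported both upregulated and downregulated genes in this comparison. The 0 calls thus belong to limma on log-scaled FPKM and do not show that OGD left expression unchanged with TIA. At an unadjusted p under 0.05, 6 of the 37 genes were higher in OGD-TIA and 0 were lower, against 11.6% and 7.91% of all genes. In 10 of the 37 genes the lowest OGD-TIA culture lay above the highest CONTROL-TIA culture, which held for 9.5% of all genes tested, and in 0 the reverse held, against 6.7%. These 10 were *Pik3c3*, *Wipi1*, *Wipi2*, *Atg12*, *Gabarap*, *Lamp1*, *Lamp2*, *Npc1*, *Ctsb* and *Npc2*. Some gaps were small, as for *Ctsb* (147.2 against 147.1 FPKM) and *Lamp2* (36.6 against 36.0 FPKM), and others wider, as for *Npc1* (13.01 against 11.6 FPKM). For all of these genes except *Atg12*, the highest CONTROL culture was culture 4, which belongs to CONTROL-VEH and is not in this comparison. In the other arm, all OGD-VEH cultures lay above all CONTROL-VEH cultures for *Tfeb* and below them for *Ulk2*, 1 gene each, against 12.8% and 9.94% of all genes.

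The OGD effect averaged over both pretreatments was estimated from all 16 cultures, 8 OGD against 8 CONTROL with TIA as a term of the model. A call in this fit does not show that a gene moved in each arm, and no member passed in either arm alone. Here 10 of the 37 genes (27.0%) were upregulated, against 18.7% of the 16342 genes tested, and 1 (2.70%) was downregulated, against 13.4%. Upregulated were *Gabarap*, *Wipi1*, *Wipi2*, *Tfeb*, *Lamp1*, *Lamp2*, *Npc1*, *Npc2*, *Ctsb* and *Ctsd*, and *Ulk2* was downregulated. The 37 genes had a median log2 fold change of 0.11, beside 0.08 for all genes, with 24 above 0 and 13 below. DEGs were genes with padj of at most 0.05 whose level also rose or fell by 1 or more on the log2 scale. No member was among them, against 4.77% of all genes. With median-ratio scaling on top of the deposited values, which lowers the median of all genes to 0.02, the split was 8 up and 6 down, against 15% and 16% of all genes.

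**Figure D1:**
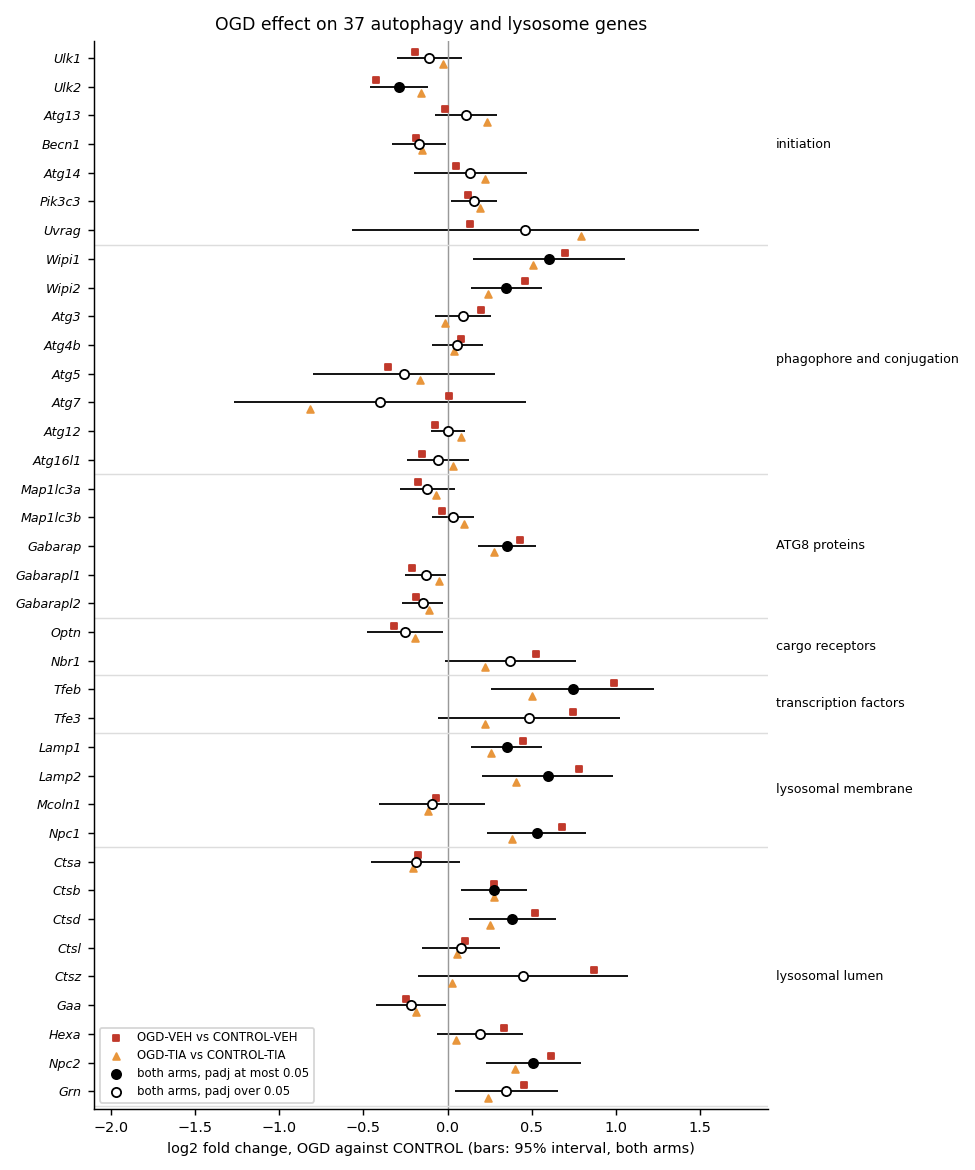
Log2 fold change of OGD against CONTROL for the 37 tested genes, ordered by role. Circles with 95% intervals are the estimates over both arms, filled where padj was at most 0.05 (10 to the right of 0 and *Ulk2* to the left), and squares and triangles are the estimates without and with TIA.

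The initiation genes held the 1 decrease. *Ulk2* (chr11:61775649-61855073, GRCm38, minus strand) encodes a kinase that starts autophagosome formation beside ULK1. Its level was 58.7, 57.0, 62.5 and 66.6 FPKM in CONTROL-VEH, 60.5, 56.9, 64.3 and 59.3 FPKM in CONTROL-TIA, 53.5, 42.4, 44.6 and 42.4 FPKM in OGD-VEH, and 61.7, 56.4, 54.8 and 44.5 FPKM in OGD-TIA. The vehicle arms did not overlap, whereas with TIA culture 13 lay within the CONTROL range and cultures 14, 15 and 16 below it. Over both arms the log2 fold change was -0.29 (95% interval -0.46 to -0.12, padj = 0.0155). The estimate was -0.42 without TIA and -0.16 with TIA, and the difference between these was 0.27 (95% interval -0.06 to 0.59, padj = 0.723).

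The other 6 initiation genes did not pass. *Becn1*, which encodes the scaffold of the lipid kinase complex, had a log2 fold change of -0.17 over both arms (padj = 0.0928), and *Pik3c3*, the catalytic subunit of that complex, one of 0.16 (padj = 0.0726). *Ulk1*, *Atg13*, *Atg14* and *Uvrag* had padj between 0.356 and 0.534. The interval of *Uvrag*, which encodes a partner of BECN1, ran from -0.57 to 1.49, since 2 isoforms of 366 and 376 bases carried most of its FPKM and were near 0 in some cultures: the gene lay at 14.2 FPKM in culture 4 and 6.06 FPKM in culture 5 against a highest value of 81.0 FPKM.

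Of the 8 genes for membrane growth and conjugation, both WIPI genes were upregulated and the other 6 did not pass. WIPI proteins bind the lipid that PIK3C3 makes, and WIPI2 brings the conjugation machinery to the membrane. *Wipi2* (chr5:142627698-142670588, plus strand) lay at 22.2, 19.6, 20.7 and 28.8 FPKM in CONTROL-VEH, 23.2, 22.6, 22.8 and 21.8 FPKM in CONTROL-TIA, 26.3, 29.9, 30.3 and 39.0 FPKM in OGD-VEH and 28.0, 25.0, 23.4 and 30.7 FPKM in OGD-TIA. Among CONTROL cultures only culture 4 reached the OGD range, and the log2 fold change over both arms was 0.35 (95% interval 0.14 to 0.56, padj = 0.0165).

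*Wipi1* (chr11:109573331-109611967, minus strand) lay at 8.61, 9.04, 8.90 and 16.9 FPKM in CONTROL-VEH, 8.80, 8.66, 8.07 and 7.58 FPKM in CONTROL-TIA, 10.99, 17.5, 14.7 and 29.0 FPKM in OGD-VEH and 9.69, 10.8, 8.94 and 20.6 FPKM in OGD-TIA. The highest culture of CONTROL-VEH, OGD-VEH and OGD-TIA was that with the highest astrocyte marker sum in its group, whereas in CONTROL-TIA the culture with the highest sum, 8, had the lowest *Wipi1* level of all 16. The log2 fold change was 0.60 (95% interval 0.15 to 1.05, padj = 0.0408), and it kept padj of at most 0.05 in 12 of 24 alternative settings. Among the 6 other genes of this role the narrowest interval was that of *Atg12*. *Atg12*, a ubiquitin-like protein joined to ATG5, lay between 53.0 and 60.7 FPKM in all 16 cultures, with a log2 fold change of 0.00 (95% interval -0.10 to 0.10). *Atg3*, *Atg4b*, *Atg5*, *Atg7* and *Atg16l1* had padj between 0.38 and 0.629, and the intervals of *Atg5* (-0.80 to 0.28) and *Atg7* (-1.27 to 0.46) were wide because short isoforms were estimated at 0 in some cultures and well above 0 in others.

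Among the ATG8 genes, *Gabarap* was upregulated and the 4 other genes were not called. *Gabarap* (chr11:69991143-69994951, plus strand), whose protein acts mostly late in autophagosome maturation, lay at 282, 237, 259 and 319 FPKM in CONTROL-VEH, 291, 254, 248 and 249 FPKM in CONTROL-TIA, 300.4, 391, 376 and 415 FPKM in OGD-VEH and 313, 294, 296 and 357 FPKM in OGD-TIA. All 8 OGD cultures were at or above 294 FPKM, and culture 4 was the only CONTROL culture above that level. The difference of 0.35 on the log2 scale (95% interval 0.18 to 0.52) had the smallest padj of the 37 genes (0.00611) and a fold change of 1.28. *Map1lc3b*, the gene of the LC3B protein that is widely used as a marker of autophagosomes, lay between 101 and 141 FPKM and had a log2 fold change of 0.03 (95% interval -0.10 to 0.16, padj = 0.713). The estimates of *Map1lc3a*, *Gabarapl1* and *Gabarapl2* were -0.12, -0.13 and -0.15 (padj = 0.24, 0.09 and 0.0603).

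Neither cargo receptor passed. *Nbr1*, whose protein brings ubiquitin-marked cargo to ATG8, lay at 159, 116, 163 and 252 FPKM in CONTROL-VEH, 149.9, 162, 164 and 219 FPKM in CONTROL-TIA, 154, 217, 261 and 371 FPKM in OGD-VEH and 159, 206, 187 and 263 FPKM in OGD-TIA. The groups overlapped widely and the log2 fold change was 0.37 (95% interval -0.02 to 0.76, padj = 0.13). *Optn* (optineurin, a receptor for mitochondria and bacteria) had an estimate of -0.26 (padj = 0.0764).

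*Tfeb* (chr17:47737030-47792419, plus strand), the transcription factor that drives lysosomal and autophagy genes, had the largest log2 fold change of the 37 genes over both arms. Its level was 0.704, 0.866, 1.06 and 1.37 FPKM in CONTROL-VEH, 0.908, 0.604, 1.146 and 1.11 FPKM in CONTROL-TIA, 1.41, 2.71, 1.72 and 2.56 FPKM in OGD-VEH and 1.08, 1.33, 0.877 and 2.48 FPKM in OGD-TIA. The vehicle groups did not overlap, and with TIA cultures 14 and 16 exceeded all CONTROL-TIA cultures. The log2 fold change was 0.74 (95% interval 0.26 to 1.23, padj = 0.0232), on a gene whose values rest on few reads. *Tfe3*, its relative, had an estimate of 0.48 (95% interval -0.06 to 1.02, padj = 0.157).

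**Figure D2:**
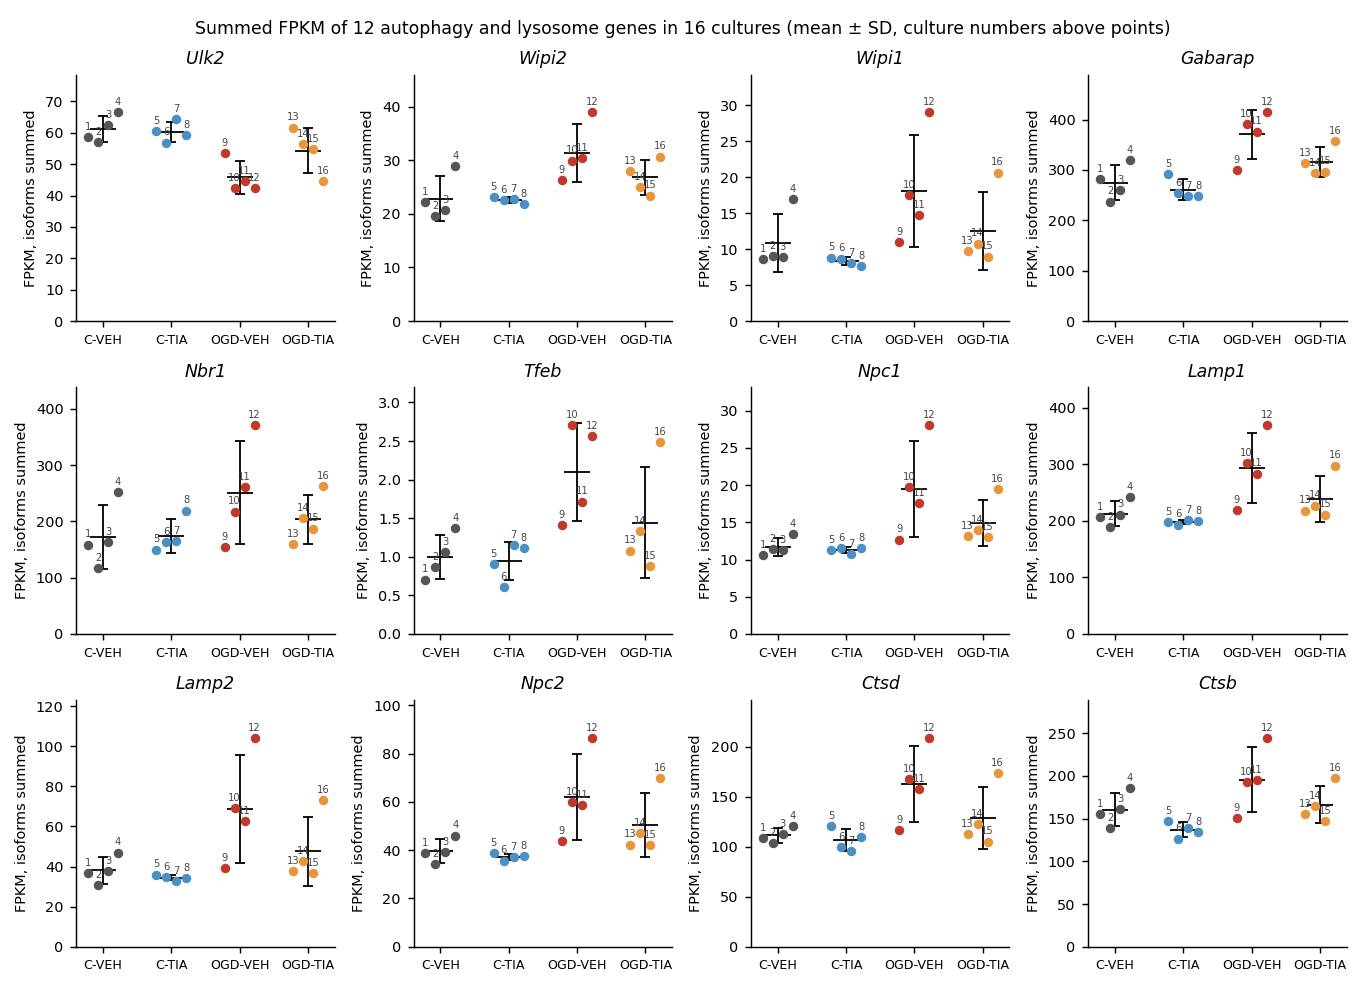
Summed FPKM of the 12 genes whose values are given per culture, with the mean ± SD of 4 cultures per group and the culture number above each point (C-VEH and C-TIA are the CONTROL groups). In most panels culture 12 is the highest of the 16, and culture 9 lies nearest the CONTROL cultures among OGD-VEH.

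The lysosomal membrane genes were upregulated in 3 of 4 cases. *Lamp1* and *Lamp2* encode the main glycoproteins of that membrane, *Npc1* exports cholesterol from the lysosome, and *Mcoln1* encodes its calcium channel. *Lamp1* (chr8:13159161-13175338, plus strand) lay at 207, 189, 211 and 242 FPKM in CONTROL-VEH, 198, 193, 201 and 199 FPKM in CONTROL-TIA, 219, 301, 284 and 369 FPKM in OGD-VEH and 218, 227, 211 and 298 FPKM in OGD-TIA. OGD-TIA lay wholly above CONTROL-TIA, while culture 4 reached above culture 9, and the log2 fold change over both arms was 0.35 (95% interval 0.14 to 0.56, padj = 0.0165).

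*Lamp2* (chrX:38401357-38456454, minus strand) lay at 36.6, 30.9, 37.9 and 46.9 FPKM in CONTROL-VEH, 36.0, 34.6, 32.9 and 34.2 FPKM in CONTROL-TIA, 39.1, 69.2, 62.5 and 104 FPKM in OGD-VEH and 37.9, 42.9, 36.6 and 73.0 FPKM in OGD-TIA. Cultures 12 and 16 were the highest of their groups, and the log2 fold change was 0.59 (95% interval 0.20 to 0.98, padj = 0.0238). *Npc1* lay at 10.6, 11.4, 11.3 and 13.5 FPKM in CONTROL-VEH, 11.3, 11.5, 10.7 and 11.6 FPKM in CONTROL-TIA, 12.7, 19.8, 17.6 and 28.1 FPKM in OGD-VEH and 13.1, 13.96, 13.01 and 19.5 FPKM in OGD-TIA. It changed by 0.53 (95% interval 0.24 to 0.82, padj = 0.0115), and apart from culture 4 all CONTROL cultures lay below all OGD cultures. *Mcoln1* had an estimate of -0.09 (95% interval -0.41 to 0.22, padj = 0.657).

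Of 9 tested genes of the lysosomal lumen, *Npc2*, *Ctsd* and *Ctsb* were upregulated and 6 were not called. NPC2 hands cholesterol to NPC1. *Npc2* (chr12:84754562-84773152, minus strand) lay at 38.7, 34.2, 39.3 and 46.1 FPKM in CONTROL-VEH, 38.7, 35.7, 37.2 and 37.5 FPKM in CONTROL-TIA, 43.6, 60.1, 58.6 and 86.5 FPKM in OGD-VEH and 42.3, 47.0, 42.1 and 69.9 FPKM in OGD-TIA. The log2 fold change was 0.51 (95% interval 0.23 to 0.79, padj = 0.0117), a fold change of 1.42 beside 1.44 for *Npc1*.

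Cathepsins D and B are proteases of the lysosome. *Ctsd* (chr7:142375911-142388038, minus strand) lay at 108, 104, 113 and 121 FPKM in CONTROL-VEH, 120.4, 99.9, 96.0 and 109 FPKM in CONTROL-TIA, 117, 168, 158 and 209 FPKM in OGD-VEH and 112, 123, 105 and 174 FPKM in OGD-TIA. Cultures 9, 13 and 15 lay within the CONTROL range, and the log2 fold change was 0.38 (95% interval 0.13 to 0.64, padj = 0.0264). *Ctsb* (chr14:63122462-63145923, plus strand) lay at 155, 139, 161 and 186 FPKM in CONTROL-VEH, 147, 126, 139 and 134 FPKM in CONTROL-TIA, 151, 193, 195 and 244 FPKM in OGD-VEH and 156, 165, 147 and 198 FPKM in OGD-TIA. Its log2 fold change was 0.28 (95% interval 0.08 to 0.47, padj = 0.0339), and it kept padj of at most 0.05 in 12 of 24 alternative settings.

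The other lumen genes gave estimates in both directions. *Grn*, the gene of progranulin, had 0.35 (padj = 0.0756), *Ctsz* 0.45 (padj = 0.253), *Hexa*, a lysosomal glycosidase, 0.19 (padj = 0.224), *Ctsl* 0.08 (padj = 0.604), *Ctsa* -0.19 (padj = 0.249) and *Gaa*, which degrades lysosomal glycogen, -0.22 (padj = 0.0976). *Ctsz* was the least abundant of them, at 1.27 to 7.72 FPKM, and cultures 12 and 16 held its highest values, 7.72 and 4.94 FPKM.

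Promoters are shown because *Lamp1* and other lysosomal genes are known to carry the motif CACGTG, or its longer form TCACGTGA, to which TFEB and TFE3 bind. RefSeq windows on GRCm38.p6, from 250 bases before to 50 bases after a start site, were matched for 31 of the 38 genes (36 windows). Both motifs read the same on either strand, and every TCACGTGA is also counted as the shorter motif. The shorter motif, CACGTG, was present in 10 of the 31 genes (32.3%), namely *Atg3*, *Atg5*, *Atg7*, *Atg14*, *Ctsa*, *Ctsd*, *Ctsl*, *Gaa*, *Lamp1* and *Mcoln1*, and in 8.09% of all 27025 genes with a window. TCACGTGA was present in 4 of them (12.9%), *Atg3*, *Ctsa*, *Ctsd* and *Mcoln1*, against 1.12% of all genes. Parts of 5 windows, picked after the matches were seen as those with TCACGTGA or with 4 matches (stretches may leave out a match elsewhere in the window), are printed 5′ to 3′ on the strand of the gene with the matches in capitals.
*Lamp1* (chr8:13159085-13159160, plus strand): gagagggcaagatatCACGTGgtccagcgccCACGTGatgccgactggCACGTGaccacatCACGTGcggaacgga
*Ctsd* (chr7:142387905-142387940, minus strand): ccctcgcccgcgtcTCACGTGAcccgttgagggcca
*Ctsa* (chr2:164833746-164833772, plus strand): caatgagcaaactgTCACGTGAtgcag
*Mcoln1* (chr8:3500433-3500494, plus strand): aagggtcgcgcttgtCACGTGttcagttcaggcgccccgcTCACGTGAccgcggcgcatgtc
*Atg3* (chr16:45158720-45158778, plus strand): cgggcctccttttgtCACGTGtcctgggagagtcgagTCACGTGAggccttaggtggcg
Of these 5 genes, *Lamp1* and *Ctsd* were upregulated over both arms, and *Ctsa*, *Mcoln1* and *Atg3* were not called (log2 fold changes of -0.19, -0.09 and 0.09). A match describes the letters of the window, and binding was not measured.

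TIA in place of vehicle gave no call among the members. Between CONTROL-TIA and CONTROL-VEH, 0 of 37 genes and 0 of 16196 genes passed (0% in either direction), and at an unadjusted p under 0.05 only *Map1lc3b* was lower with TIA, by a log2 fold change of -0.20 (95% interval -0.39 to -0.01, padj = 0.999), where 3.85% of all genes had such a p. Between OGD-TIA and OGD-VEH, 0 of 37 genes and 0 of 16380 genes passed, and 0 members against 7.9% of all genes had an unadjusted p under 0.05. With array quality weights 1 member, *Gabarap*, passed in this comparison (log2 fold change -0.32), where 5.89% of all genes were called down and 3.46% up. The estimates are set out because their direction can be read from the values above: *Lamp2* had -0.50 (95% interval -1.25 to 0.24), *Npc1* -0.35 (-0.92 to 0.22), *Gabarap* -0.23 (-0.50 to 0.04), *Tfeb* -0.57 (-1.37 to 0.24) and *Ulk2* 0.24 (-0.06 to 0.55). Of the 37 genes, 22 were below 0 and 15 above, with a median of -0.19 beside -0.05 for all genes.

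The difference between the OGD effects of the arms was tested on its own, as an interaction over 16 cultures. It was called in 0 of 37 members and in 0 of 16342 genes, and 0 members against 6.06% of all genes had an unadjusted p under 0.05. The OGD effects themselves, which use different cultures, were 0.78 without and 0.41 with TIA for *Lamp2*, 0.68 and 0.38 for *Npc1*, 0.43 and 0.27 for *Gabarap* and 0.27 and 0.28 for *Ctsb*. The interaction estimate was -0.37 (95% interval -1.16 to 0.41) for *Lamp2*, -0.30 (-0.89 to 0.29) for *Npc1* and 0.00 (-0.41 to 0.41) for *Ctsb*. These intervals hold effects as large as the OGD effects and also 0, so that 4 cultures per group do not settle whether TIA altered the response of these genes.

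The upregulated genes mostly had the same extreme cultures within groups, which is a description of genes chosen for their values, while the order of the other cultures differed between genes. Culture 12 was the highest of all 16 in 9 of the 10 upregulated genes and culture 10 in 1, culture 9 was the lowest of OGD-VEH in 10, culture 16 was the highest of OGD-TIA in 10 and culture 4 the highest of the 8 CONTROL cultures in 10. On the log2 scale, the median difference of these 10 genes from the CONTROL mean was 1.06 in culture 12, 0.64 in culture 10, 0.58 in culture 11 and 0.16 in culture 9, and 0.72 in culture 16 against 0.04 to 0.20 in the 3 other OGD-TIA cultures. Cultures 4, 12 and 16 are those with the highest astrocyte marker sums. *Gfap*, the astrocyte filament gene, lay at 87.4, 85.9 and 64.5 FPKM there against at most 26.2 FPKM in the other 13. The astrocyte markers did not all follow this order. *Aldh1l1* lay at 448 and 344 FPKM in cultures 12 and 16, but at 60.6 FPKM in culture 4, the lowest of all 16. Much of the astrocyte sum of culture 4 came from *Aldoc*, at 838 FPKM. Culture 4 also had the highest neuron marker sum of all 16, 2644 FPKM.

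**Figure D3:**
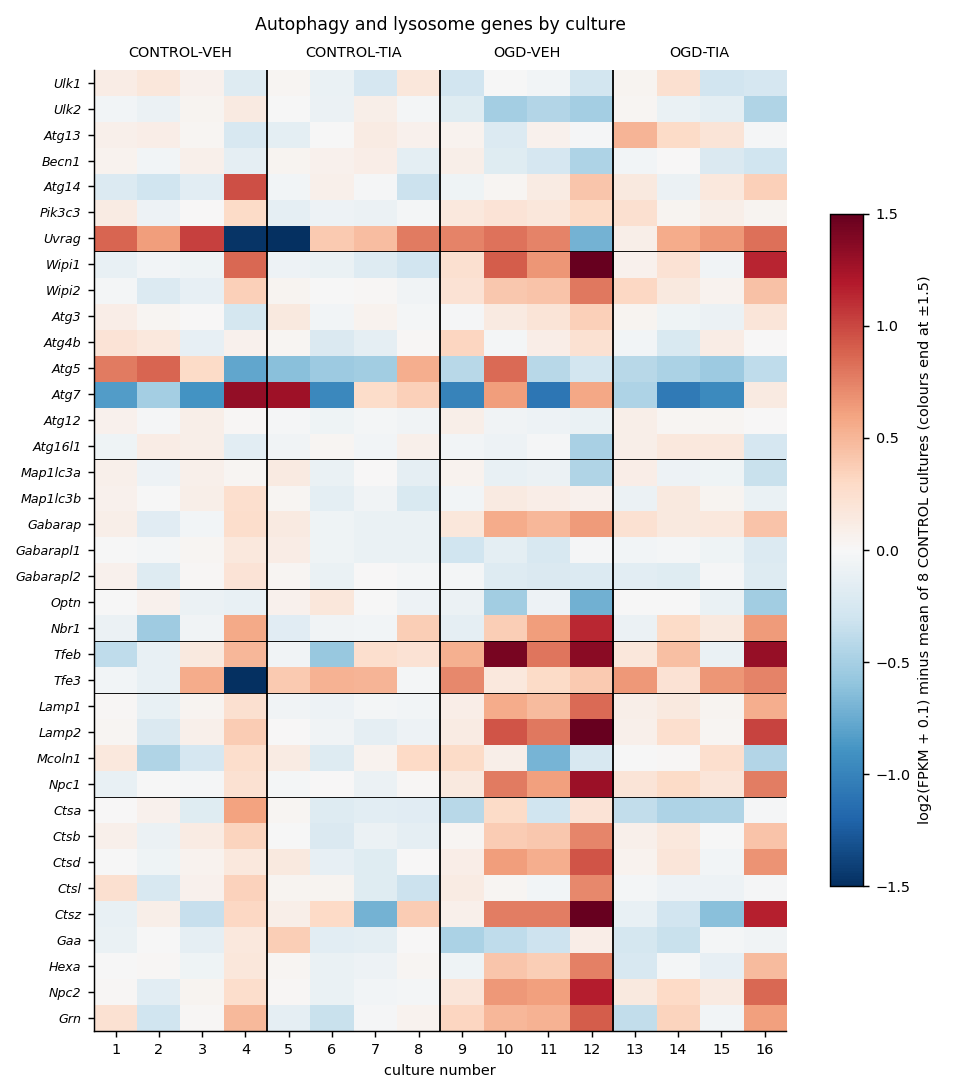
Difference of each gene in each culture from the mean of the 8 CONTROL cultures, on the log2(FPKM + 0.1) scale, with genes by role and cultures by group. The upregulated lysosomal genes (*Lamp1*, *Lamp2*, *Npc1*, *Npc2*, *Ctsb* and *Ctsd*) are highest in cultures 12, 10, 11 and 16. The single highest culture of *Mcoln1*, *Gaa* and *Ctsa* is a CONTROL culture (8, 5 and 4), with OGD culture 9 next for *Mcoln1* and OGD culture 10 next for *Ctsa*. *Uvrag*, *Atg5*, *Atg7* and *Tfe3* change from culture to culture within groups.

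Without the culture of the highest astrocyte marker sum in each group (4, 8, 12 and 16), a setting added after the data were seen, 6 members were upregulated over both arms and 0 were downregulated, against 9.6% and 7.14% of all genes in the same fit. *Gabarap*, *Wipi1*, *Wipi2*, *Lamp1*, *Npc1* and *Npc2* kept padj of at most 0.05, and *Lamp2* (padj = 0.0664), *Tfeb* (0.0676), *Ctsb* (0.0798), *Ctsd* (0.0963) and *Ulk2* (0.0911) did not. Over all 16 cultures 2 of 6 astrocyte markers and 5 of 7 tested oligodendrocyte lineage markers were upregulated, while 5 of 7 neuron markers and 1 oligodendrocyte lineage marker, *Mbp*, were downregulated. Of the 10 microglia markers, *Aif1* lay at 0.242 to 2.76 FPKM and each of the 9 others at 0.328 FPKM or less in every culture, and *Ctss* did not exceed 0.142 FPKM. The part of the astrocyte and oligodendrocyte lineage markers in these results was not tested.

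**Figure D4:**
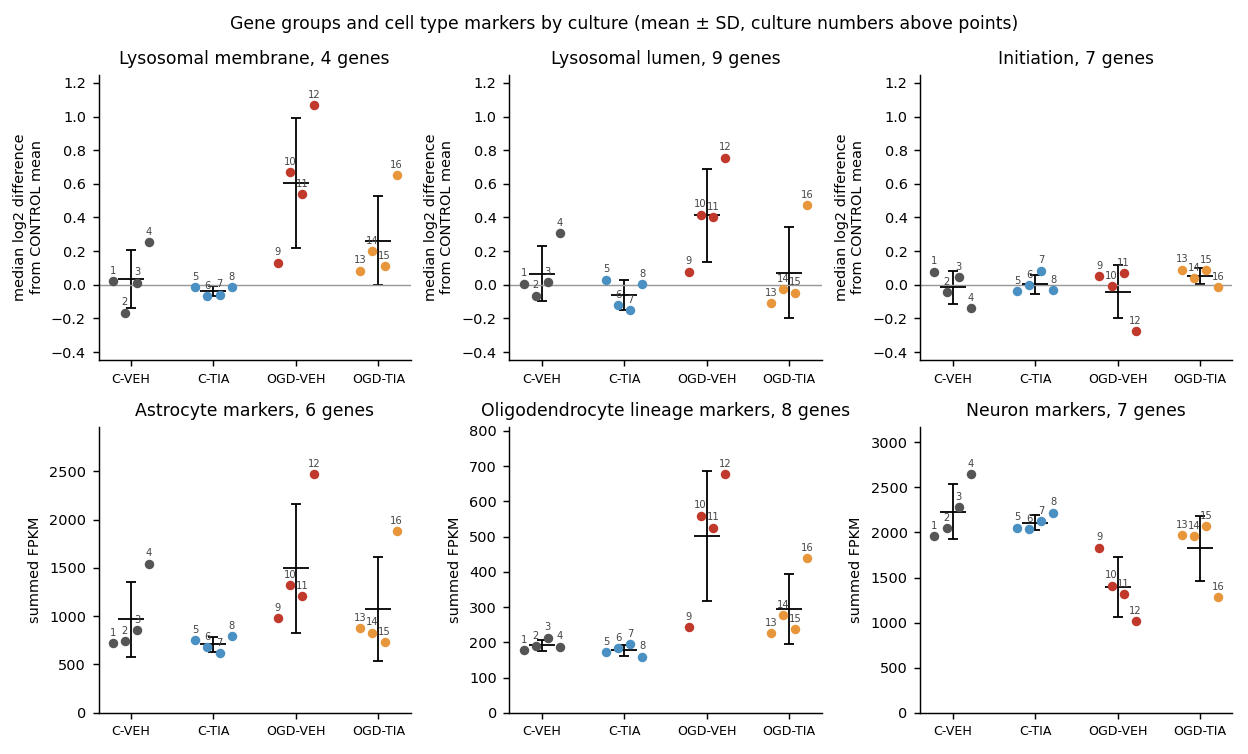
Top, the median difference from the CONTROL mean over the lysosomal membrane, lysosomal lumen and initiation genes in each culture (log2 scale), and bottom, the summed FPKM of astrocyte, oligodendrocyte lineage and neuron markers, each with mean ± SD per group. Culture 12 is the highest in both lysosomal panels and in the astrocyte and oligodendrocyte lineage panels, and the lowest in the neuron panel.

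A wider set of the pathway was read in the same fit, beside 18.7% of all genes called up and 13.4% called down. Its 4 lists were written from general knowledge, with earlier results of these data known. The share called up was 8.11%, 18.9%, 15.8% and 17.6% for autophagosome genes, lumen hydrolases, membrane and proton pump genes, and mTORC1 and AMPK genes, and the share called down was 5.41%, 8.11%, 23.7% and 2.94%. The shares called up were thus below or near that of all genes in all 4 lists, and the genes named below are single genes with their values. Of 37 other autophagosome genes, 3 were upregulated and 2 downregulated over both arms. *Bag3*, a chaperone partner that directs misfolded proteins to autophagy, had a log2 fold change of 1.27 (padj = 0.00829). It was highest in OGD cultures 12, 16, 10 and 11 at 5.44, 4.235, 3.475 and 3.21 FPKM. CONTROL cultures reached at most 1.295 FPKM, and the OGD cultures did not all lie above that level. The mitophagy receptors *Bnip3* and *Bnip3l*, both known as hypoxia targets, were lower after OGD, by log2 fold changes of -0.62 and -0.37 (padj = 0.0127 and 0.00541). Lists of hydrolases showed both directions: of 37 tested lumen genes 7 were upregulated, among them *Ctsc* (1.10) and *Tpp1* (0.81), and 3 downregulated, among them *Arsa* (-0.48) and *Ids* (-0.47).

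Of 38 genes of the lysosomal membrane and its proton pump (the V-ATPase, which acidifies the lysosome and, in neurons, synaptic vesicles), 6 were upregulated and 9 downregulated. Upregulated were *Cd68* (1.69), *Tpcn2* (0.94), *Cd63* (0.82), *Atp6v0e* (0.74), *Laptm4a* (0.46) and *M6pr* (0.41). *Cd68*, a glycoprotein that is high in macrophages, lay at 9.72, 14.4, 12.4 and 11.9 FPKM in OGD-VEH and 4.25, 3.00, 4.19 and 10.8 FPKM in OGD-TIA against 1.58 to 4.73 FPKM in CONTROL, in cultures whose 10 microglia markers summed to at most 3.13 FPKM. Downregulated were *Lamp5* (-1.25), which is restricted to certain neurons, *Atp6v0a1* (-0.59), *Atp6v1a* (-0.44), *Atp6v0c* (-0.34), *Atp6v1c1* (-0.29), *Atp6v0d1* (-0.16), *Atp6ap2* (-0.20), *Tmem175* (-0.29) and *Sort1* (-0.20). The pump subunit *Atp6v0a1* lay at 543 to 714 FPKM in CONTROL and at 285 to 523 FPKM in OGD, with no overlap.

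Among 34 tested genes of the mTORC1 and AMPK pathways, which sense nutrients and energy and control the ULK kinases, 6 were upregulated and 1, *Rragb*, was downregulated. *Sesn2*, a stress-induced inhibitor of mTORC1, had the largest change of this list (0.97, padj = 0.00234) at 15.6 to 32.5 FPKM in OGD against 7.05 to 12.8 FPKM in CONTROL. It was followed by *Prkab1* (0.42), *Lamtor3* (0.35), *Prkaa1* (0.31), *Fnip1* (0.31) and *Stk11* (0.29). Without TIA alone, 7 of the 146 tested genes of the 4 lists were upregulated (4.79%, against 5% of all genes) and 2 downregulated (1.37%, against 3.44%). The upregulated genes included *Sesn2*, *Rragc*, *Bag3*, *Cd68*, *Cd63* and *Atp6v0e*, and *Atp6v0a1* and *Atp6v1a* were downregulated.

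The isoforms behind the sums affect how far each value can be read. The 38 genes have 257 isoforms, and in 18 genes over 50% of the summed FPKM came from isoforms under 1000 bases, many of them annotated as retained introns or processed transcripts. For *Ulk1* a retained intron isoform of 356 bases held 53.1% of the sum, and for *Ctsb* one of 801 bases held 73.5%. When isoforms were weighted by their length, a gene's value follows its total reads. In that setting 16 of 37 genes were upregulated over both arms, against 27.9% of all genes, and 5 were downregulated, against 17.3% of all genes. All 10 genes upregulated by the sum were among the 16, joined by *Tfe3*, *Nbr1*, *Atg13*, *Pik3c3*, *Grn* and *Atg14*, and *Ulk2* was joined by *Gaa*, *Optn*, *Gabarapl1* and *Gabarapl2*.

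**Figure D5:**
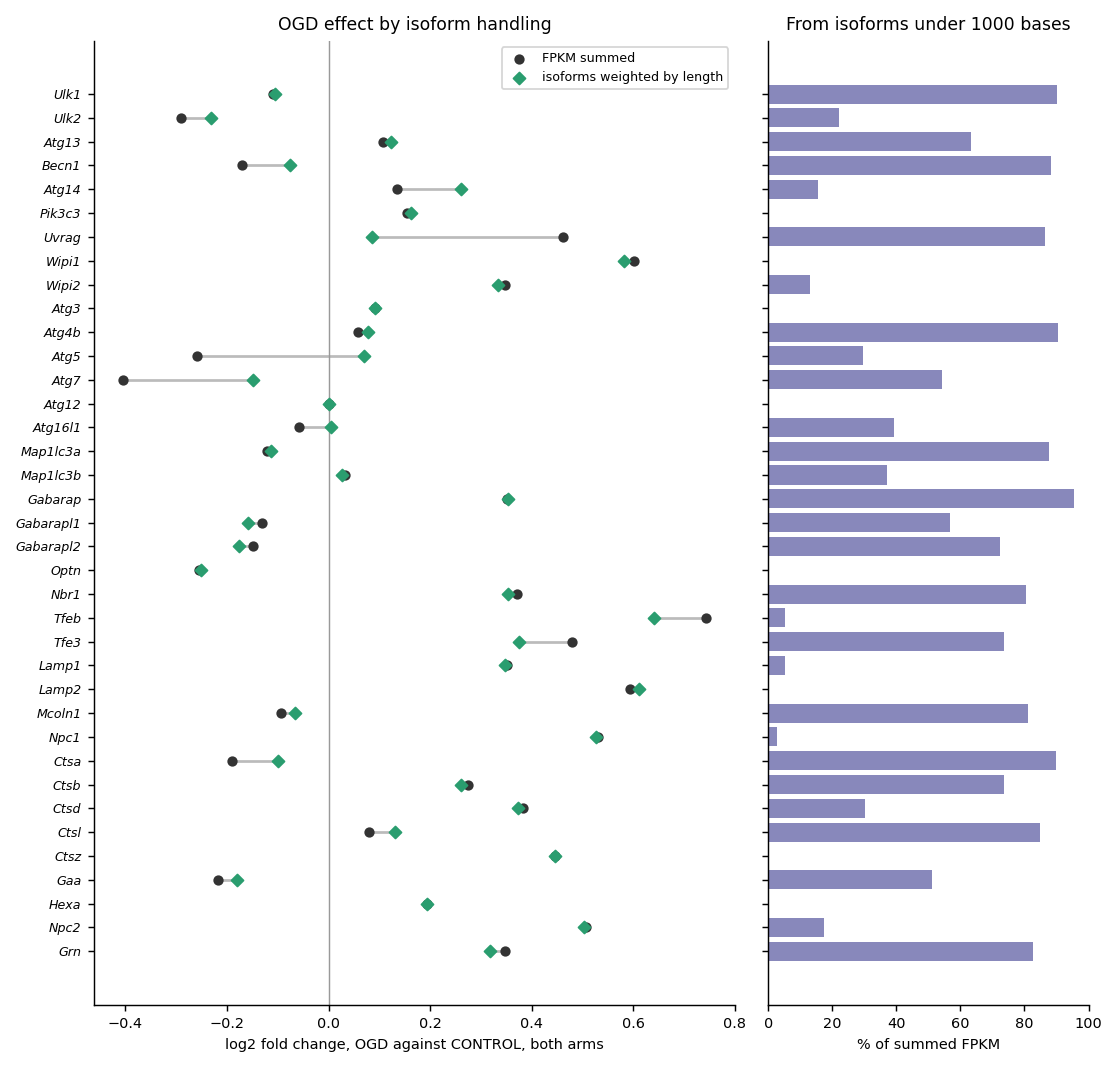
Left, the log2 fold change of OGD against CONTROL over both arms when isoform FPKM were summed (circles) or weighted by length (diamonds), and right, the percentage of the summed FPKM that came from isoforms under 1000 bases. The estimates lie together for *Lamp1*, *Npc1* and *Gabarap* and far apart for *Uvrag*, *Atg5* and *Atg7*.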

How the data were processed

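Stranded mRNA libraries of 16 cultures were sequenced as 50-base single-end reads. Per the study's methods and labels, the authors' service provider mapped reads to GRCm38 with STAR and estimated isoforms with eXpress. The deposited values are FPKM per isoform after TMM scaling, as the name of the file states. The table holds 135202 isoforms of 53779 genes (74 further lines carry no identifier). GENCODE M21 gave symbols, lengths and positions.

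Isoform FPKM were summed per gene and log2(FPKM + 0.1) was fitted with limma 3.58.1 in R 4.3.3 (empirical Bayes with trend) where the gene's average over the fitted cultures reached 0.5 FPKM. p was adjusted by Benjamini-Hochberg over all genes fitted. The study's test, DESeq2, needs counts and was not used. Pairwise comparisons used their 8 cultures, and the OGD effect over both arms and the interaction all 16. The study describes the 4 cultures of a group as biological replicates. The procedure was tested on simulated data.

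Members and lists were chosen with earlier results of these data known. Values per culture are given, in each role, for members with padj of at most 0.05 (at most 3 per direction) or else for the member of highest mean FPKM. In the 4 wider lists, called genes beyond the 3 largest changes per direction were named after their values were seen, and some called genes of these lists are not reported here. *Castor1* and *Castor2* of the mTORC1 list were not analysed here. Depth was estimated from the FPKM of 1 read at 18.8 to 24.8 M reads per culture, or 23.0 to 29.6 M if fragments of 300 bases are assumed. The range of aligned reads per sample that the study states lies nearer the first estimate. The depth of each culture is known only roughly, and no counting intervals are given. Alternatives were pseudocounts of 1 and 0.01, no filter or 2 FPKM, median-ratio scaling, array quality weights, length weighting, all 16 cultures in one fit, each culture left out in turn and, added later, the culture of highest astrocyte marker sum left out of each group.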

Additional observations from a re-analysis of the deposited data

Results flagged for a closer look

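Among 48 sets of 4 cultures (the 12 genes given per culture, in 4 groups), 5 held a culture far from the 3 others of its group, by Dixon's 95% limit for 4 values. Chance flags about 1 in 20 sets where sets are independent. These sets are not independent, since the 12 genes were read in the same 16 cultures, so the number of flags cannot be judged by that rate. For *Wipi1*, culture 4 of CONTROL-VEH lay at 16.9 FPKM, above a next value of 9.04 FPKM, and culture 16 of OGD-TIA at 20.6 FPKM, above 10.8 FPKM. Culture 16 also stood apart for *Npc1*, at 19.5 FPKM above 13.96 FPKM, and for *Lamp2*, at 73.0 FPKM above 42.9 FPKM. For *Gabarap*, culture 5 of CONTROL-TIA lay at 291 FPKM, above 254 FPKM. Cultures 4 and 16 had the highest astrocyte marker sums of their groups (1543 and 1881 FPKM), and culture 5 had 748 FPKM, below the 789.8 FPKM of culture 8. The part of these markers in the values was not tested.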

How the results depend on the processing

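Across the alternatives no named gene changed sign in a called result. For OGD-VEH against CONTROL-VEH, 0 calls became 1 with a minimum mean of 2 FPKM, 1 with median-ratio scaling, 5 with isoforms weighted by length, 9 with all 16 cultures in one fit and 17 with array quality weights, and leaving out 1 culture gave 0 to 10, the 10 without culture 9. Between OGD-TIA and OGD-VEH array quality weights gave 1 call, and in the 3 remaining comparisons of TIA cultures (the OGD effect with TIA, TIA without OGD and the interaction) the members stayed at 0 in the alternatives run. Over all genes, calls ranged from 1 to 6349 around 1382 without TIA, from 2729 to 7373 around 5248 over both arms, and up from 0 to 268 for the OGD effect with TIA, 1532 for TIA after OGD, 4 for TIA without OGD and 3 for the interaction. Over both arms, 11 calls became 21 with isoforms weighted by length and 6 without the culture of highest astrocyte marker sum in each group (added after the data were seen), and leaving out 1 culture gave 7 (without culture 10) to 14 (without culture 9). *Gabarap*, *Lamp1*, *Npc1*, *Npc2* and *Wipi2* kept padj of at most 0.05 in all 24 alternatives, *Lamp2* and *Ulk2* in 23, *Ctsd* in 19, *Tfeb* in 21 of 23, and *Ctsb* and *Wipi1* in 12. The cause of these changes was not tested. No paired analysis was possible because each culture has its own number from 1 to 16 and no number occurs in more than 1 group. The highest astrocyte marker sum fell to the last-numbered culture of each group (4, 8, 12 and 16), but no source used here says that position marks a shared preparation, and cultures were not paired by position. Depth limits *Tfeb*, *Ctss* and *Ctsz* most.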
